A study of Homo sapiens with 9 samples.

Results

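The collagen genes were taken as every row of the expression tables whose symbol is COL, a number, A and a number, which gave 44 of the 26485 genes listed. By the kind of structure their proteins build they were divided into 11 fibrillar genes, 6 basement membrane genes (the chains of type IV collagen) and 27 others. RNA came from MDA-MB-231, a line derived from human triple-negative breast cancer, mesenchymal in character and long established in culture, grown in DMEM with serum. The cells stably expressed either a nonspecific control hairpin (NS shRNA) or one of the hairpins against ASAH1, shRNA #1 and shRNA #2, so that every group carried a hairpin. ASAH1 encodes acid ceramidase, the lysosomal enzyme that splits ceramide into sphingosine and a fatty acid. Each group held 3 libraries, described as biological replicates, and rested on 1 hairpin in 1 cell line. The labels name no other cells in the cultures.

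Collagens are matrix proteins whose alpha chains wind into helical trimers. Fibrillar collagens form the cable-like fibres of connective tissue. Type IV chains form the sheet-like network of basement membranes, and other classes coat fibrils, form beaded filaments, anchor epithelia or span the plasma membrane. In carcinoma most fibrillar collagen is made by fibroblasts, while carcinoma cells make basement membrane and minor collagens themselves and meet a collagen-rich matrix when they invade. A chain is secreted only as part of a trimer with its partners, after hydroxylation and folding in the endoplasmic reticulum.

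The libraries held between 23806003 and 49659106 reads on genes. The targeted gene was checked first. ASAH1 stood at 4436, 4512 and 4518 normalized counts with NS shRNA and at 1268, 1365 and 1348 with shRNA #1. In the table of shRNA #2 it stood at 4787, 4898 and 4871 with NS shRNA and at 780, 807 and 762 with the hairpin. All hairpin libraries lay below all NS shRNA libraries of the same table for ASAH1, the gene the labels name for the hairpins. A normalized count is the number of reads on a gene divided by 1 size factor per library. The authors set the factors separately for each hairpin with the same NS shRNA libraries, so the NS shRNA values differ between the tables by a scale only, and the comparisons share their controls. Of the markers of the cell line, VIM, CD44, AXL, CAV1 and EGFR were abundant in all libraries, with at least 2667 reads each. Their levels were not constant. Their sum ran from 5034.6 to 5226.1 RPM with NS shRNA, from 4705 to 4832.5 with shRNA #1 and from 4244.8 to 4492.2 with shRNA #2. With each hairpin AXL and EGFR were called higher, VIM and CAV1 were called lower, and CD44 was not called. Of the luminal breast markers, ESR1 and PGR had at most 2 reads, while GATA3 had 401 to 1195 and EPCAM 652 to 1773. The summed level of these 4 luminal markers ran from 43.0 to 45.3 RPM with NS shRNA and from 39.8 to 43.8 with shRNA #1. With shRNA #2 it was the highest, from 57.5 to 64.3. With shRNA #1 GATA3 was called lower (log2 fold change -0.48 ± 0.07, SE) and EPCAM higher (0.21 ± 0.08). With shRNA #2 both were called higher. Of the fibroblast markers, DCN had at most 3 reads, PDGFRA at most 6 and FAP at most 12, while LUM had 31 to 140 and PDGFRB 351 to 1066. The summed level of these 5 fibroblast markers ran from 29.1 to 33.7 RPM with NS shRNA, from 15.3 to 17.5 with shRNA #1 and from 12.2 to 14.02 with shRNA #2. It was therefore lower with both hairpins, and most of it was PDGFRB, with means of 26.7, 13.1 and 11.5 RPM in the same order. PDGFRB and LUM, the 2 that were tested, were each called lower with both hairpins. Of the endothelial markers, CDH5 had at most 3 reads in a library and PECAM1 39 to 102, and their sum ran from 2.82 to 3.08, from 1.54 to 2.49 and from 1.20 to 1.98 RPM in the same order. PECAM1 was called lower with shRNA #1 (log2 fold change -0.59 ± 0.19, SE) and with shRNA #2 (-0.91 ± 0.19). The leukocyte marker PTPRC had at most 8 reads. The part of these markers in the collagen results was not tested.

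The cells expressed a broad set of minor and network collagens rather than mainly the classical fibrillar ones. Levels between genes were compared as RPKM, the RPM of a gene (with the same TMM factors) for each kilobase of its canonical transcript. With NS shRNA the highest was COL18A1, the precursor of endostatin, at 56.3 ± 2.29 (SD, n = 3). COL13A1, a transmembrane collagen, followed at 42.5 ± 1.46, beside the type VI chains COL6A1 at 41.9 ± 1.07 and COL6A2 at 41.9 ± 0.637. These neighbours did not differ beyond their spread. COL12A1, which coats fibrils, stood at 35.7 ± 3.92, COL5A1, a regulator of fibril diameter, at 34.3 ± 0.844 and COL4A2 at 33.8 ± 2.37, again within each other's spread. COL7A1, the anchoring fibril chain, stood at 23.6 ± 1.83 and COL4A1 at 10.7 ± 0.665. The chains of type I collagen, the main fibre of connective tissue, were far lower, with COL1A1 at 3.54 ± 0.334 and COL1A2 at 2.39 ± 0.205. COL3A1 stood at 0.287 ± 0.0255.

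**Figure D1:**
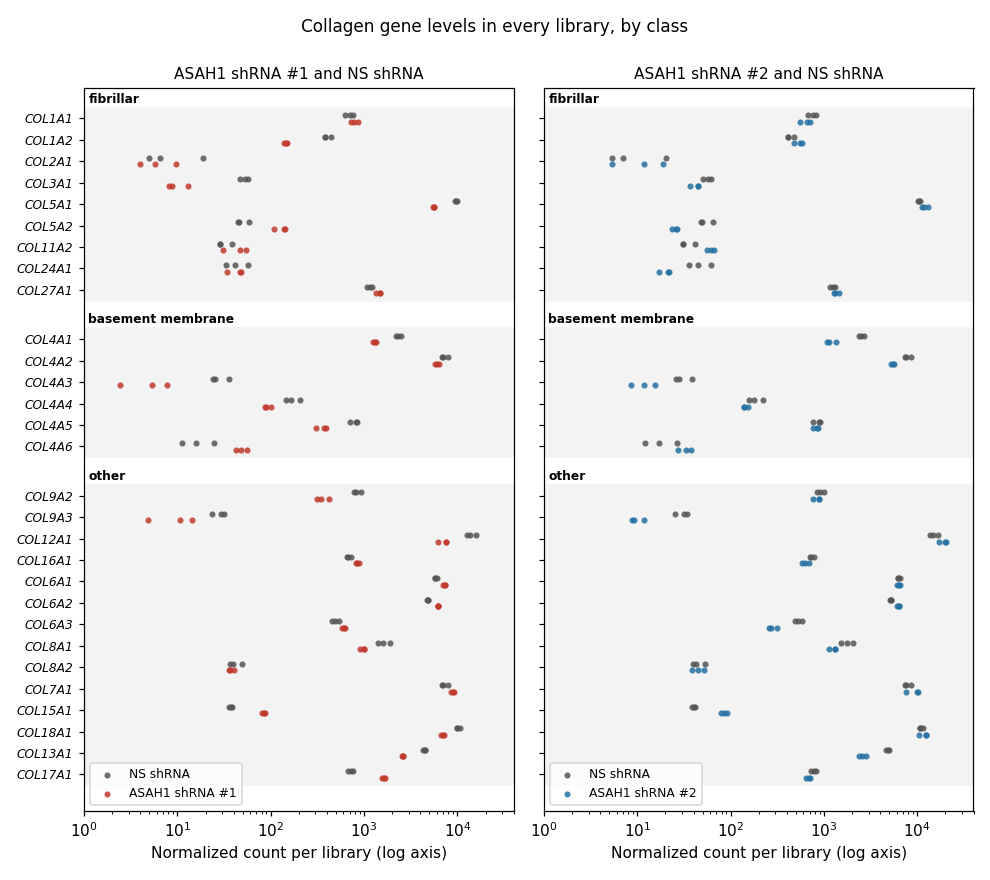
Normalized counts (log axis) of the 29 collagen genes tested in at least one comparison, by class, in each library of the tables of shRNA #1 (left) and shRNA #2 (right); each point is 1 library, grey for NS shRNA and coloured for the hairpin. The genes range from a few counts (COL2A1, COL4A3) to 20515 (COL12A1), and the libraries of a group mostly lie close together.

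All collagen genes together took 0.217, 0.229 and 0.237% of the reads on genes with NS shRNA. The share was 0.187, 0.190 and 0.183% with shRNA #1 and 0.221, 0.205 and 0.209% with shRNA #2. The libraries of shRNA #1 lay below the controls, and those of shRNA #2 overlapped them. The share of the basement membrane genes was 0.0309, 0.0318 and 0.0356% with NS shRNA, 0.0247, 0.0258 and 0.0233% with shRNA #1 and 0.0210, 0.0201 and 0.0188% with shRNA #2. It was lower than in the controls in every library of either hairpin. Of the basement membrane reads of NS shRNA replicate 1, COL4A2 gave 6594 and COL4A1 2110 of 9566, so this share mostly follows these genes. The share of the fibrillar genes was 0.0374 ± 0.000980% (SD, n = 3) with NS shRNA, 0.0256 ± 0.000347% with shRNA #1 and 0.0381 ± 0.00259% with shRNA #2. The other collagens took 0.157 ± 0.00707%, 0.137 ± 0.00195% and 0.154 ± 0.00528% in the same order. Of the fibrillar reads, COL5A1 gave 8992 of 11295, 9733 of 12262 and 10749 of 13388 with NS shRNA. With shRNA #1 it gave 4193 of 6134, 7008 of 10290 and 5696 of 8394, so the fibrillar share mostly follows this 1 gene. Two-sided exact permutation tests of the 8 comparisons of shares with NS shRNA cannot go below p = 0.1 with 3 libraries against 3. This smallest value was reached for all 4 shares with shRNA #1 and for the basement membrane share with shRNA #2, with an adjusted p of 0.16 over the 8 tests. Since these are shares of bulk RNA, fewer expressing cells and less RNA per cell cannot be told apart.

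**Figure D2:**
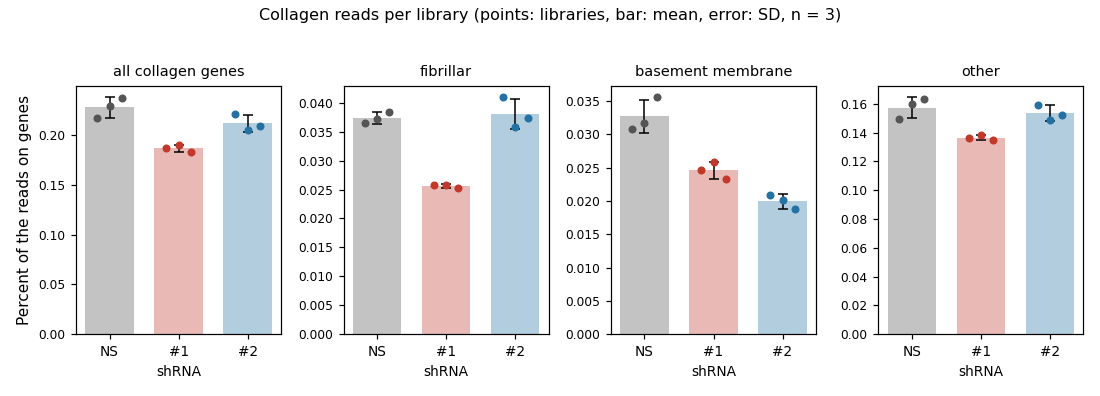
Percent of the reads on genes that fell on collagen genes, for all 44 and for each class; points are libraries, bars the mean of 3 and error bars the SD. The basement membrane share, mostly reads of COL4A2 and COL4A1, is lower with both hairpins. The fibrillar share, mostly reads of COL5A1, is lower with shRNA #1, with a mean of 0.0256% against 0.0374%.

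Each hairpin was compared with NS shRNA. Within such a comparison, loss of ASAH1 and other effects of that 1 hairpin cannot be told apart. Testing was by limma on log2(value + 1) with a trend of the variance over intensity. Tests were two-sided, and p-values were adjusted over every gene whose mean in the 6 libraries reached 10 normalized counts. Fold changes are on that scale, which understates the change of low genes. With shRNA #1, 28 collagen genes passed the filter, of which 10 were higher, 14 lower and 4 not called. Over all 14341 genes tested, 32.8% were called higher and 33.3% lower, so calls were common throughout. With shRNA #2, 29 passed the filter, of which 7 were higher, 12 lower and 10 not called, beside 33.5% called higher and 33.4% lower of 14250 genes. The count of 7 was 4 without NS shRNA replicate 1 and 4 without shRNA #2 replicate 1. The count of 12 ran from 9 to 11 with single libraries left out, and from 8 to 14 in the other alternative runs. The median log2 fold change of the tested collagen genes was -0.19 with shRNA #1 and -0.11 with shRNA #2, and that of all tested genes was 0.0013 and 0.013.

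The classes gave different counts. The 6 basement membrane genes all passed the filter, with 1 higher and 5 lower with shRNA #1 (median -0.87) and 1 higher and 4 lower with shRNA #2 (median -0.44). Of the fibrillar genes, 2 were higher and 3 lower of 8 tested with shRNA #1 (median 0.08), and 3 were higher and 2 lower of 9 tested with shRNA #2 (median 0.11). Of the other collagens, 7 were higher and 6 lower of 14 tested with shRNA #1 (median 0.08), and 3 were higher and 6 lower of 14 with shRNA #2 (median -0.05). These counts describe small lists and were not tested against other genes.

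**Figure D3:**
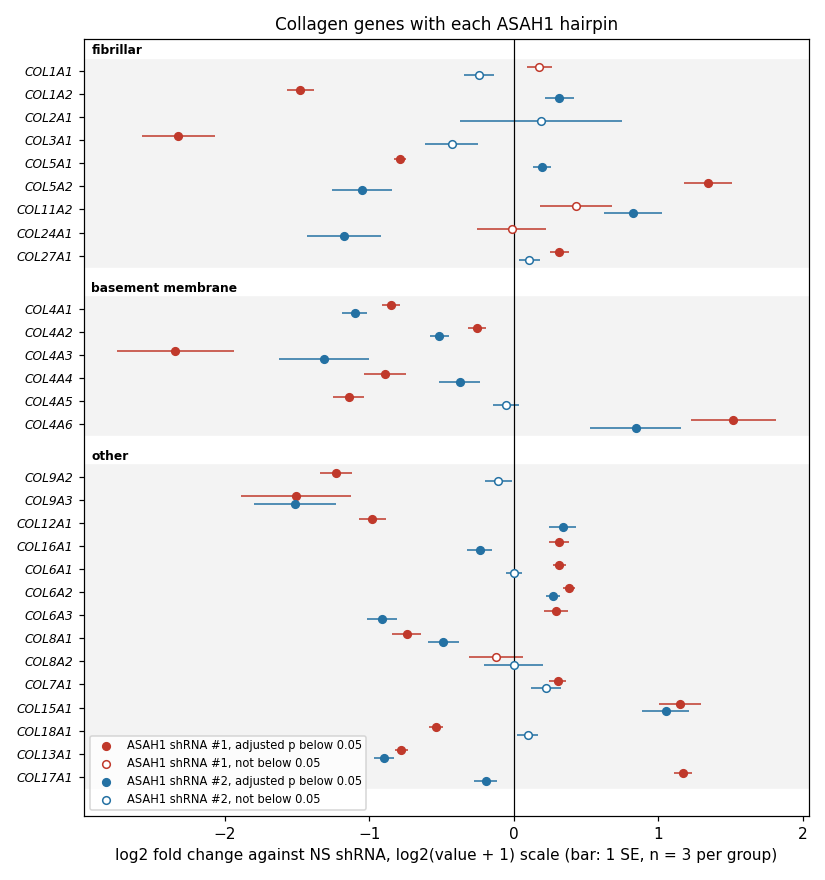
log2 fold change against NS shRNA of each tested collagen gene, with shRNA #1 in red and shRNA #2 in blue; bars are 1 SE and filled points have an adjusted p below 0.05. The type IV genes COL4A1 to COL4A4 lie left of 0 with both hairpins and COL4A6 right of 0, while COL1A2, COL5A2, COL12A1 and COL17A1 lie on opposite sides.

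The type IV genes lie as head-to-head pairs. Each pair is transcribed in opposite directions from a common start region, which is well known for this family. Part of the plus-strand sequence between each pair of starts is shown. The partners within a pair did not keep a fixed ratio, and a link of the letters to this was not tested. Capitals mark the letters GGGCGG (or CCGCCC, its reverse complement) and CCAAT (or ATTGG). Sequences and starts are from RefSeq, GRCh38.p14, and exons of either gene in GENCODE 44 were left out.
COL4A1-COL4A2, chr13:110307158-110307257, plus strand: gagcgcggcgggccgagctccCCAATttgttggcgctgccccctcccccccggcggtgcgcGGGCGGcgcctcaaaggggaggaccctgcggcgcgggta
COL4A4-COL4A3, chr2:227164454-227164623, plus strand: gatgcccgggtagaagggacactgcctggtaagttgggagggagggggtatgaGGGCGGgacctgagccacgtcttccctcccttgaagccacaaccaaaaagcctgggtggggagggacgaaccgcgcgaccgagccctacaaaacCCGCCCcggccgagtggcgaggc
COL4A6-COL4A5, chrX:108439588-108439837, plus strand: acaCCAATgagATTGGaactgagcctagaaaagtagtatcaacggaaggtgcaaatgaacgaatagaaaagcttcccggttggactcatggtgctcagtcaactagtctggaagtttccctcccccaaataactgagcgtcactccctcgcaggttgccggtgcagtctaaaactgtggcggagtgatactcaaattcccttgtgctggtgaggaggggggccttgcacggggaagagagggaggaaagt

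The RefSeq starts used lie 126 bases apart for COL4A1 and COL4A2, 418 for COL4A3 and COL4A4, and 379 for COL4A5 and COL4A6. For COL4A6 RefSeq also lists a start further from COL4A5, and the nearer one was used. The window around the further start, chrX:108438373-108438672, held 1 GGGCGG. In GENCODE the COL4A2 gene begins at base 110305812, inside COL4A1, which ends at 110307157. The 126 bases therefore hold for the RefSeq starts only. The first printed stretch was 78% G or C over 100 bases, the second 65.9% over 170 bases and the third 51.2% over 250 bases. The first held 1 GGGCGG and 1 CCAAT, the second 2 GGGCGG and no CCAAT, and the third 2 CCAAT and no GGGCGG. Among 35116 RefSeq promoters, GGGCGG occurred on either strand in 31.3%, 38.3% and 42.6% of the 100, 170 and 250 bases before the start, and CCAAT in 18.1%, 25.4% and 32.0%. These matches describe the letters of the printed stretches only, which do not cover the whole gap between the starts.

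COL4A1 and COL4A2 encode the chains of the ubiquitous type IV network. COL4A1 stood at 2208, 2296 and 2504 normalized counts with NS shRNA and at 1302, 1331 and 1248 with shRNA #1. Beside shRNA #2 it stood at 2383, 2493 and 2700 with NS shRNA and at 1339, 1132 and 1066 with the hairpin. Every hairpin library was below every control, and the log2 fold change was -0.85 ± 0.06 (SE, adjusted p = 2.28e-06, limma) with shRNA #1 and -1.10 ± 0.09 (adjusted p = 1.96e-06) with shRNA #2. COL4A2 stood at 6901, 6957 and 7857 with NS shRNA and at 6100, 6365 and 5699 with shRNA #1. In the other table it stood at 7447, 7552 and 8471 with NS shRNA and at 5687, 5491 and 5224 with shRNA #2. The groups again did not overlap, but the changes were smaller than for COL4A1, with log2 fold changes of -0.26 ± 0.06 (adjusted p = 0.00564) and -0.52 ± 0.06 (adjusted p = 4.11e-05).

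COL4A3 and COL4A4 join COL4A5 in the network of the glomerulus, lung and inner ear. COL4A3 was low, with 24.1, 25.5 and 36.0 normalized counts with NS shRNA and 5.35, 2.41 and 7.69 with shRNA #1. Beside shRNA #2 the values were 26.0, 27.7 and 38.8 with NS shRNA and 8.63, 11.7 and 15.5 with the hairpin. All hairpin libraries were below the controls, and the log2 fold change was -2.34 ± 0.40 (adjusted p = 0.000661) with shRNA #1 and -1.31 ± 0.31 (adjusted p = 0.00345) with shRNA #2. COL4A4 stood at 164, 146 and 208 with NS shRNA and at 86.9, 99.6 and 89.4 with shRNA #1, without overlap, a log2 fold change of -0.89 ± 0.15 (adjusted p = 0.000487). The libraries of shRNA #2 gave 152, 138 and 137 against 177, 159 and 224, which also did not overlap, and COL4A4 fell by 0.37 ± 0.14 on the log2 scale (adjusted p = 0.0370). That call was lost with no filter, and when NS shRNA replicate 1 or 3, or any single library of shRNA #2, was left out (log2 fold changes from -0.42 to -0.24, the latter without NS shRNA replicate 3).

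COL4A5 and COL4A6 lie on the X chromosome, and with shRNA #1 they moved furthest apart of the type IV pairs. COL4A5 stood at 698, 817 and 836 with NS shRNA and at 305, 391 and 369 with shRNA #1, well apart, a log2 fold change of -1.14 ± 0.11 (adjusted p = 1.29e-05). Values with shRNA #2 were 831, 857 and 755 against 753, 886 and 902, and these groups overlapped (log2 fold change -0.05 ± 0.09, adjusted p = 0.609). COL4A6, a chain of smooth muscle and some epithelial basement membranes, was the type IV gene that rose. It stood at 15.7, 24.5 and 11.1 with NS shRNA and at 48.1, 56.2 and 42.3 with shRNA #1, without overlap, a log2 fold change of 1.52 ± 0.29 (adjusted p = 0.00129). For shRNA #2 the values were 37.7, 33.0 and 27.1 against 16.9, 26.6 and 11.9, where the lowest hairpin library was just above the highest control (log2 fold change 0.84 ± 0.31, adjusted p = 0.0349). That call was lost without NS shRNA replicate 1 or 3, without shRNA #2 replicate 1 or 2 (log2 fold changes from 0.58 to 0.83), with no filter and with DESeq2.

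Among the fibrillar genes, COL1A2 and COL5A2 moved in opposite directions with the hairpins. COL1A2, the minority chain of type I collagen, stood at 383, 441 and 384 with NS shRNA and at 144, 138 and 148 with shRNA #1. The hairpin libraries were far below the controls, with a log2 fold change of -1.48 ± 0.09 (adjusted p = 1.01e-06). The libraries of shRNA #2 gave 556, 482 and 587 against 413, 478 and 414, just above the controls, with a log2 fold change of 0.31 ± 0.10 (adjusted p = 0.0175). The call with shRNA #2 was lost without NS shRNA replicate 1 (0.28), shRNA #2 replicate 1 (0.29) or shRNA #2 replicate 3 (0.25). COL1A1, the majority chain, was not called with shRNA #1 (log2 fold change 0.18 ± 0.09, adjusted p = 0.103) or shRNA #2 (-0.24 ± 0.10, adjusted p = 0.0611). It was called higher with shRNA #1 without NS shRNA replicate 1 (0.24), and lower with shRNA #2 without NS shRNA replicate 3 or shRNA #2 replicate 3 (-0.31 each) and with upper quartile rescaling (-0.29).

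COL5A2, a chain of the type V fibrils that nucleate type I fibres, was low. It stood at 45.0, 58.9 and 46.2 with NS shRNA and at 140, 137 and 108 with shRNA #1. Values with shRNA #2 were 23.7, 26.2 and 26.4 against 48.6, 63.9 and 49.8. Thus it was higher in all libraries of shRNA #1 and lower in all libraries of shRNA #2, with log2 fold changes of 1.34 ± 0.17 (adjusted p = 7.74e-05) and -1.05 ± 0.21 (adjusted p = 0.00110). Its partner COL5A1, the most abundant fibrillar gene in these cells, moved the other way. It stood at 9411, 9552 and 9924 with NS shRNA and at 5607, 5629 and 5473 with shRNA #1. For shRNA #2 the values were 12935, 11139 and 11683 against 10155, 10369 and 10700. The groups did not overlap in either table, and the log2 fold changes were -0.79 ± 0.04 (adjusted p = 4.12e-07) and 0.19 ± 0.06 (adjusted p = 0.0179). The small rise with shRNA #2 was lost without NS shRNA replicate 1 (0.18), NS shRNA replicate 2 (0.19) or shRNA #2 replicate 1 (0.13), without the intensity trend and with upper quartile rescaling.

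COL3A1, the fibrillar collagen of pliable tissue, stood at 56.5, 47.1 and 53.5 with NS shRNA and at 8.02, 12.9 and 8.65 with shRNA #1. This was among the larger decreases, with a log2 fold change of -2.32 ± 0.25 (adjusted p = 3.26e-05). The libraries of shRNA #2 gave 44.2, 44.7 and 36.5 against 61.0, 51.1 and 57.7, below the controls, with a log2 fold change of -0.43 ± 0.18 that was not called (adjusted p = 0.0596). It was called with upper quartile rescaling and without the intensity trend. COL24A1, a fibrillar collagen of developing bone, fell with shRNA #2, from 36.1, 44.7 and 61.7 to 17.3, 21.4 and 21.7 (log2 fold change -1.17 ± 0.26, adjusted p = 0.00205), and overlapped the controls with shRNA #1 (-0.02 ± 0.24, adjusted p = 0.959). COL11A2, a cartilage chain, rose with shRNA #2, from 30.5, 41.5 and 30.9 to 61.5, 66.1 and 55.8 (0.83 ± 0.20, adjusted p = 0.00384). With shRNA #1 it stood at 30.8, 53.8 and 47.1 against 28.3, 38.3 and 28.6, which overlapped (0.43 ± 0.25, adjusted p = 0.153), and it was called without shRNA #1 replicate 1 (0.66). COL27A1, also of cartilage, rose with shRNA #1 from 1153 ± 71.0 to 1433 ± 66.3 (SD, n = 3, log2 fold change 0.31 ± 0.07, adjusted p = 0.00207) and was not called with shRNA #2 (0.11 ± 0.07, adjusted p = 0.212). COL2A1, the main cartilage collagen, had a mean below 10 in the table of shRNA #1 and was not called with shRNA #2 (0.19 ± 0.56, adjusted p = 0.782).

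Of the fibril-associated collagens (FACIT), which decorate the surface of fibrils, 4 of 10 were tested. COL12A1, the collagen gene with the most reads with NS shRNA (19.0% of all collagen reads), stood at 12552, 13601 and 15641 with NS shRNA and at 7497, 7498 and 6178 with shRNA #1. Values with shRNA #2 were 19649, 20515 and 16869 against 13544, 14764 and 16864. All libraries of shRNA #1 lay far below the controls, and the lowest of shRNA #2 was level with the highest control. The log2 fold changes were -0.98 ± 0.09 (adjusted p = 1.42e-05) and 0.34 ± 0.09 (adjusted p = 0.00697). COL9A3, a cartilage type IX chain, stood at 29.3, 23.6 and 31.4 with NS shRNA and at 10.7, 4.82 and 14.4 with shRNA #1 (log2 fold change -1.51 ± 0.38, adjusted p = 0.00600). For shRNA #2 the values were 11.9, 8.75 and 9.31 against 31.6, 25.6 and 33.8 (-1.52 ± 0.29, adjusted p = 0.000802), so that both hairpins gave values below every control. COL9A2 stood at 918, 828 and 776 with NS shRNA and fell to 312, 347 and 417 with shRNA #1 (-1.23 ± 0.11, adjusted p = 9.27e-06), while with shRNA #2 it overlapped the controls (-0.11 ± 0.09, adjusted p = 0.322). COL16A1 moved little, from 683 ± 38.1 to 847 ± 38.4 with shRNA #1 (0.31 ± 0.07, adjusted p = 0.00287) and from 738 ± 43.8 to 628 ± 54.9 with shRNA #2 (-0.23 ± 0.09, adjusted p = 0.0334). The call with shRNA #2 was lost without NS shRNA replicate 2 (-0.19), shRNA #2 replicate 1 (-0.23) or shRNA #2 replicate 2 (-0.17), and without the intensity trend.

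Type VI collagen forms beaded filaments from chains that include COL6A1, COL6A2 and COL6A3. With shRNA #1 these 3 genes rose. COL6A2 stood at 4726, 4850 and 4820 with NS shRNA and at 6257, 6236 and 6259 with shRNA #1 (log2 fold change 0.38 ± 0.04, adjusted p = 2.99e-05). Under shRNA #2 the libraries gave 6344, 6117 and 6316 against 5100, 5265 and 5196 (0.27 ± 0.05, adjusted p = 0.000653), also above every control. COL6A1 stood at 5763, 5754 and 6058 with NS shRNA and at 7400, 7424 and 7056 with shRNA #1 (0.32 ± 0.05, adjusted p = 0.000209). With shRNA #2 COL6A1 overlapped the controls, at 6341 ± 278 against 6332 ± 173 (SD, n = 3, adjusted p = 0.981). COL6A3, the largest chain, stood at 448, 484 and 537 with NS shRNA and at 602, 621 and 575 with shRNA #1 (0.29 ± 0.08, adjusted p = 0.0103). With shRNA #2 COL6A3 was lower than every control, at 313, 259 and 269 against 483, 525 and 579 (-0.91 ± 0.10, adjusted p = 2.35e-05).

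Of the remaining classes, the multiplexins COL15A1 and COL18A1 are proteoglycans of basement membrane zones. COL15A1 stood at 38.7, 35.3 and 37.9 with NS shRNA and at 86.9, 81.1 and 83.6 with shRNA #1 (log2 fold change 1.15 ± 0.15, adjusted p = 9.23e-05). Values with shRNA #2 were 90.6, 84.5 and 79.1 against 41.8, 38.4 and 40.8 (1.05 ± 0.16, adjusted p = 0.000195), so that every hairpin library lay far above the controls. COL18A1 fell with shRNA #1 from 9927, 10559 and 9907 to 6658, 7009 and 7217 (-0.54 ± 0.05, adjusted p = 9.67e-06). With shRNA #2 it overlapped the controls (0.09 ± 0.07, adjusted p = 0.268), but it was called higher without shRNA #2 replicate 2 (0.18).

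The transmembrane collagens COL13A1, of the neuromuscular junction and cell adhesion sites, and COL17A1, of the epithelial hemidesmosome, differed from each other. COL13A1 stood at 4523, 4540 and 4299 with NS shRNA and at 2559, 2603 and 2615 with shRNA #1 (log2 fold change -0.78 ± 0.05, adjusted p = 6.76e-07). For shRNA #2 the values were 2534, 2392 and 2822 against 4881, 4928 and 4635 (-0.90 ± 0.07, adjusted p = 1.32e-06), so both hairpins gave values far below the controls. COL17A1 stood at 674, 762 and 728 with NS shRNA and at 1630, 1677 and 1564 with shRNA #1, well above (1.17 ± 0.06, adjusted p = 4.39e-07). Under shRNA #2 the libraries gave 703, 648 and 689 against 727, 827 and 784, just below (-0.20 ± 0.08, adjusted p = 0.0442). That call was lost with no filter and when NS shRNA replicate 2 or 3, or any single library of shRNA #2, was left out (log2 fold changes from -0.22 to -0.15).

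The short-chain network gene COL8A1, of vessels and the corneal endothelium, stood at 1399, 1611 and 1901 with NS shRNA and at 999, 1007 and 910 with shRNA #1 (log2 fold change -0.74 ± 0.10, adjusted p = 0.000156). Values with shRNA #2 were 1321, 1301 and 1140 against 1510, 1749 and 2050 (-0.49 ± 0.11, adjusted p = 0.00203), and neither hairpin overlapped the controls. Its relative COL8A2 was at 41.6 ± 6.48 with NS shRNA and 37.8 ± 2.25 with shRNA #1 (adjusted p = 0.575), and at 45.0 ± 6.92 and 44.9 ± 6.19 beside shRNA #2 (adjusted p = 0.999). COL7A1, the anchoring fibril of skin, rose with shRNA #1 from 6813, 7833 and 7045 to 8503, 8935 and 9286 (0.30 ± 0.06, adjusted p = 0.00167). With shRNA #2 it overlapped the controls (0.22 ± 0.10, adjusted p = 0.0744), but it was called without shRNA #2 replicate 2 (0.35) and with DESeq2.

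A direct comparison of the hairpins used the reads recovered from all 9 libraries and the quasi-likelihood test of edgeR. Of 28 collagen genes tested, 10 were higher with shRNA #2 than with shRNA #1 and 12 lower, beside 32.2% and 31.8% of 14382 genes. With single libraries left out the counts of collagen genes ran from 8 to 10 higher and from 8 to 12 lower. The largest differences, as log2 ratios of shRNA #2 to shRNA #1, were -2.44 ± 0.18 (SE, adjusted p = 5.15e-07) for COL5A2, 1.91 ± 0.25 (adjusted p = 3.97e-05) for COL3A1 and 1.81 ± 0.10 (adjusted p = 5.28e-08) for COL1A2. COL17A1 followed with -1.37 ± 0.06 (adjusted p = 1.28e-08), COL12A1 with 1.32 ± 0.10 (adjusted p = 5.53e-07) and COL6A3 with -1.21 ± 0.09 (adjusted p = 5.13e-07). COL1A1, which was called with neither hairpin, was lower with shRNA #2 than with shRNA #1 (-0.42 ± 0.10, adjusted p = 0.00340). Among the type IV genes, COL4A5 had the ratio 1.07 ± 0.10 (adjusted p = 3.27e-06), COL4A4 0.51 ± 0.15 (adjusted p = 0.0101) and COL4A2 -0.26 ± 0.06 (adjusted p = 0.00334). COL4A1 had -0.25 ± 0.08 (adjusted p = 0.0194) and COL4A6 -0.71 ± 0.26 (adjusted p = 0.0287). Both calls were lost without shRNA #1 replicate 2, shRNA #2 replicate 2 or shRNA #2 replicate 3, where COL4A1 ran from -0.22 to -0.18 and COL4A6 from -0.73 to -0.58. COL4A3 had 1.16 ± 0.45 (adjusted p = 0.0384), which was lost without shRNA #1 replicate 1 or 2 or shRNA #2 replicate 2 or 3 (0.75 to 1.20, the lowest without shRNA #1 replicate 2). The 6 genes for which no difference was called were COL11A2, COL9A3, COL8A2, COL7A1, COL15A1 and COL13A1. Their ratios lay between -0.12 ± 0.06 for COL13A1 and 0.33 ± 0.22 for COL11A2, and that of COL9A3, at -0.08 ± 0.40, was the least precise. COL13A1 was called lower without shRNA #2 replicate 3 (-0.19) and with upper quartile normalization (-0.17).

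Because partner chains share trimers, the reads of one chain were divided by those of its partner within each library, which needs no scaling between libraries. These 7 pairs were picked with their values already known. The ratio of COL4A1 to COL4A2 reads was 0.320, 0.330 and 0.319 with NS shRNA, 0.214, 0.209 and 0.219 with shRNA #1 and 0.235, 0.206 and 0.204 with shRNA #2. It was thus lower in every hairpin library, and about as low with one hairpin as with the other. COL4A5 to COL4A6 went from 44.5, 33.3 and 75.5 to 6.33, 6.96 and 8.73 with shRNA #1 and to 22.0, 25.9 and 27.8 with shRNA #2. COL4A3 to COL4A4, which rests on few COL4A3 reads, had a mean log2 ratio of -2.61 ± 0.14 (SD, n = 3) with NS shRNA, -4.31 ± 0.95 with shRNA #1 and -3.62 ± 0.50 with shRNA #2. Each hairpin group lay below the NS shRNA libraries for these 3 pairs, that is, toward COL4A2, COL4A4 and COL4A6.

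The fibrillar pairs were shifted in opposite senses by the hairpins. The mean log2 ratio of COL1A1 to COL1A2 was 0.79 ± 0.17 with NS shRNA, 2.45 ± 0.11 with shRNA #1 and 0.23 ± 0.03 with shRNA #2. For COL5A1 to COL5A2 it was 7.60 ± 0.22, 5.45 ± 0.19 and 8.87 ± 0.19. For COL6A1 to COL6A2 it was 0.29 ± 0.04, 0.22 ± 0.04 (overlapping the controls) and 0.02 ± 0.04, and for COL9A2 to COL9A3 4.91 ± 0.26, 5.30 ± 0.76 (overlapping) and 6.41 ± 0.17. In 2-sided exact permutation tests of the 14 differences from NS shRNA, 12 reached p = 0.1, the smallest value that 3 libraries against 3 allow (adjusted p = 0.117), and the overlapping ones gave p = 0.2 (adjusted p = 0.215) and p = 0.7. This test cannot pass 0.05 with 3 libraries in each group. As the pairs were picked with their values known, these p-values are descriptive only, and other gene pairs were not compared.

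**Figure D4:**
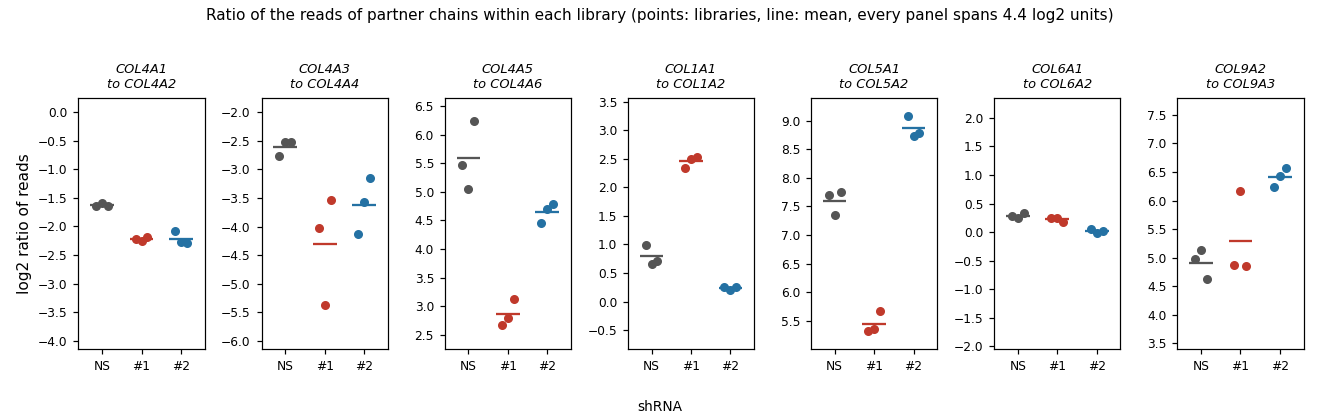
log2 ratio of the reads of partner collagen chains in each library; points are libraries, lines the means of 3 and each panel spans the same number of log2 units. The type IV pairs lie lower with both hairpins than with NS shRNA, whereas COL1A1 to COL1A2 and COL5A1 to COL5A2 lie on opposite sides of NS shRNA.

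The other 15 collagen genes passed the filter in neither comparison. COL9A1, COL23A1 and COL26A1 had no reads in any library, and with these 10 of the 15 had at most 3 reads in every library. The others of the 10 were COL5A3, COL6A5, COL6A6, COL10A1, COL14A1, COL22A1 and COL25A1. COL19A1, COL21A1 and COL28A1 reached at most 5 reads and COL20A1 at most 8. COL11A1, a chain often reported from tumour stroma, had 1, 3 and 2 reads with NS shRNA, 9, 16 and 12 with shRNA #1 and 5, 6 and 3 with shRNA #2. The libraries of shRNA #1 were the highest, but at this depth the values rest on 57 reads in all.

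Finally, 52 genes that modify, fold, cleave, cross-link, bind or degrade collagen were counted by role. With shRNA #1, 45 were tested, of which 5 were higher and 26 lower (median log2 fold change -0.30). With shRNA #2, 46 were tested, of which 12 were higher and 20 lower (median -0.14), and between the hairpins 22 were higher and 15 lower with shRNA #2 of 46 tested. Over all genes tested, 32.8% were higher and 33.3% lower with shRNA #1, 33.5% and 33.4% with shRNA #2, and 32.2% and 31.8% between the hairpins. The roles below hold few genes each, and their counts were not tested against these shares. The prolyl and lysyl hydroxylation genes, whose products stabilise the helix, had 0 higher and 9 lower of 13 with shRNA #1, and 3 higher and 6 lower with shRNA #2. The folding and secretion genes had 0 higher and 3 lower of 7 with shRNA #1, and 2 higher and 2 lower with shRNA #2. The propeptide cleavage genes had 1 higher and 3 lower of 6, and 0 higher and 3 lower. The cross-linking genes had 1 higher and 4 lower of 6, and 2 higher and 2 lower. The receptors had 1 higher and 5 lower of 7, and 2 higher and 3 lower. The degradation genes had 2 higher and 2 lower of 4, and 2 higher and 3 lower of 5. Of the glycosylation genes COLGALT1 and COLGALT2 neither was called with shRNA #1, and with shRNA #2 COLGALT1 was higher and COLGALT2 lower.

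The genes called with each hairpin and with an absolute log2 fold change of at least 1 with either are given with both values, shRNA #1 first. P4HA1, a catalytic subunit of prolyl hydroxylase, had -1.01 ± 0.05 and -0.29 ± 0.05. The procollagen proteinase ADAMTS14 had -1.04 ± 0.12 and -1.86 ± 0.16. Among the lysyl oxidases that cross-link collagen, LOXL1 had -0.32 ± 0.08 and -1.69 ± 0.10, LOXL4 -1.32 ± 0.04 and -1.05 ± 0.05, and LOXL3 1.57 ± 0.12 and 0.94 ± 0.14, so that LOXL3 rose while LOXL1 and LOXL4 fell. The fibrillar collagen receptor DDR2 rose, with 1.52 ± 0.28 and 2.13 ± 0.31. The collagen uptake receptor MRC2 had -0.76 ± 0.06 and -1.09 ± 0.06, and the integrin chain ITGA10 -0.94 ± 0.17 and -1.05 ± 0.14. MMP1, the interstitial collagenase, had 3.73 ± 0.12 and 0.76 ± 0.18. MMP9, a gelatinase that also cleaves type IV collagen, had 1.84 ± 0.20 and -1.95 ± 0.33, in opposite directions. The lysosomal collagenase CTSK had -1.05 ± 0.18 and -0.89 ± 0.19.

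**Figure D5:**
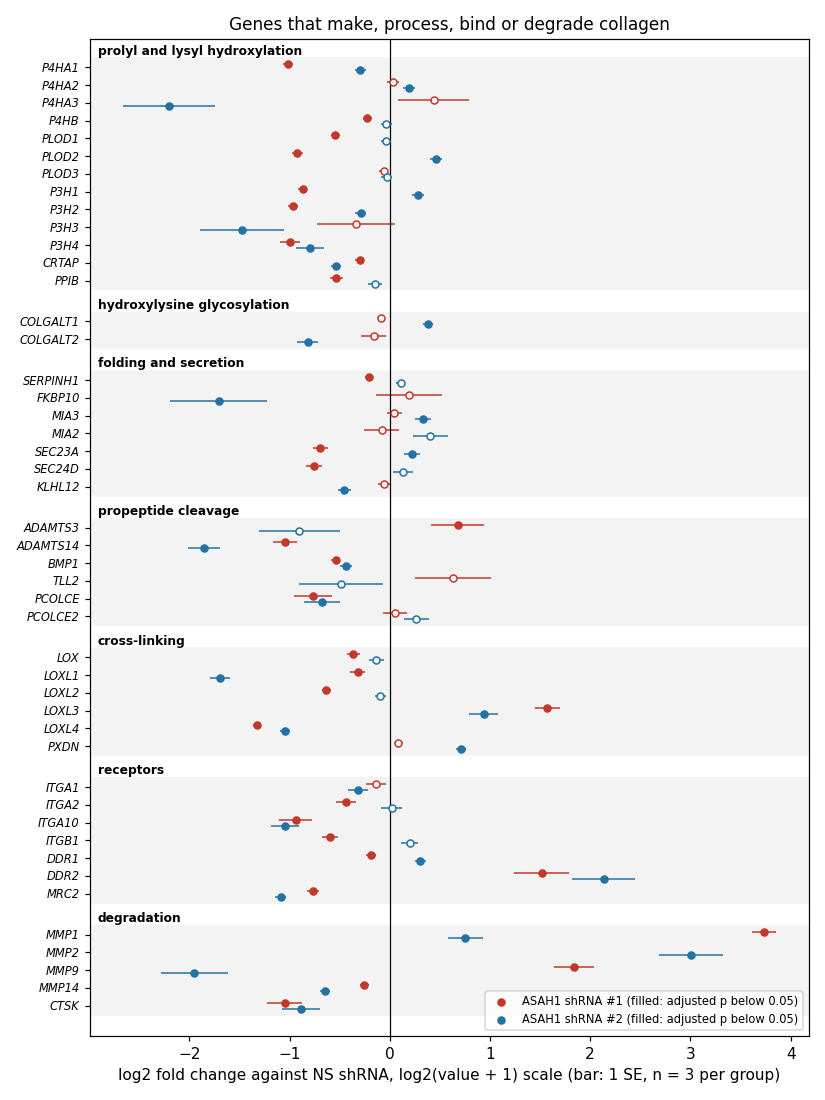
log2 fold change against NS shRNA of the tested genes that make, process, bind or degrade collagen, by role; red is shRNA #1, blue shRNA #2, bars 1 SE, and filled points have an adjusted p below 0.05. Most hydroxylation genes lie left of 0 with shRNA #1 (9 of 13 called lower), and MMP1 lies far to the right with shRNA #1.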

How the data were processed

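Total RNA of the 9 libraries was purified on oligo-dT beads and made into strand-specific dUTP libraries, read as single-end 76 bp reads. The series text names ribosomal RNA depletion instead. The authors' steps were trimming (Trimmomatic 0.36), alignment to hg38 (STAR 2.7.1a), reverse-strand counting over UCSC genes (htseq-count) and division of each library's counts by its DESeq2 1.28 size factor, once for each hairpin with the NS shRNA libraries. Elsewhere the methods describe a pipeline of Bowtie2, RSEM and edgeR with TMM. The deposited tables hold this normalized signal per library for 26485 genes, beside the authors' own DESeq2 fold changes and p-values, which were not used. There were 0 unmatched sample columns.

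Multiplied by 1 factor for each library, every value became a whole read count (100% within 0.01 of a read), and these recovered reads were used where named. The reads of NS shRNA replicate 3 were taken from the table of shRNA #1, and NS shRNA reads showed 0 differences between the tables. Spreadsheet software had turned 28 gene symbols into dates in one table, none of them a collagen gene. Depth was 30989598 to 34867548 reads on genes with NS shRNA, 23806003 to 39791698 with shRNA #1 and 35653318 to 49659106 with shRNA #2, and genes with few reads are measured less precisely. The biological coefficient of variation was 7.09%, 8.19% and 7.44% in the same order. Replicates of a group, scaled by their total reads, differed by more than sampling noise (chi-square per gene 5.26 to 23.2), so each was counted as 1 library. This does not show whether they are independent biological replicates.

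Hairpin and NS shRNA libraries of a table were fitted by limma 3.58.1 (R 4.3.3) with an intensity trend on log2(value + 1), over genes whose mean reached 10, with Benjamini-Hochberg adjustment over all genes and a threshold of 0.05. The hairpins were compared by edgeR 4.0.16 (quasi-likelihood, TMM) on the reads of all 9 libraries. On the recovered reads edgeR called 9477 and 9547 genes with shRNA #1 and #2, and DESeq2 1.42.0 called 9242 and 9326, against 9479 and 9538 by limma. As alternatives, the pseudocount (0.1 or 5), the filter (none, or a mean of 50), the intensity trend, the scaling and the tool were changed one at a time, using edgeR, DESeq2, 1 fit of all libraries, a replicate block and the omission of each library. The fits were tested on simulated data. Scripts ran in Python 3.11.15 with pandas 2.3.3, scipy 1.17.1 and matplotlib 3.10.9. Transcript lengths came from GENCODE 44 and start regions from RefSeq, whose promoter table held 32 of the 44 collagen genes. The UCSC annotation the authors counted on was not used here. Every collagen gene was accounted for, those with a mean of at least 10 by name and value. Of the machinery list, genes were named when called in both comparisons with an absolute log2 fold change of at least 1 in either. The members and lists were chosen with earlier results of these data known, and the classes and roles follow general knowledge of collagens.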

Additional observations from a re-analysis of the deposited data

Results flagged for a closer look

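For 7 collagen genes the effect against NS shRNA was called in opposite directions with the hairpins. These were 25% of the 28 collagen genes tested in both comparisons. The same held for 1121 of all 14075 genes tested in both, or 7.96%, and the shares were not tested against each other. For each of these genes, collagen or not, the difference between the hairpins was also called by edgeR's quasi-likelihood test on all 9 libraries. That call follows largely from opposite calls on shared controls and is no further evidence. The log2 ratios of shRNA #2 to shRNA #1 of the 7 collagen genes were 1.81 for COL1A2, 0.98 for COL5A1, -2.44 for COL5A2, 1.32 for COL12A1, -0.54 for COL16A1, -1.21 for COL6A3 and -1.37 for COL17A1. Of the 7, COL1A2, COL5A1 and COL12A1 were lower with shRNA #1 than with NS shRNA and higher with shRNA #2, and COL5A2, COL16A1, COL6A3 and COL17A1 were higher with shRNA #1 and lower with shRNA #2. The calls with shRNA #2 of COL1A2, COL5A1, COL16A1 and COL17A1 were small and were lost when single libraries were left out. Those of COL5A2, COL6A3 and COL12A1 were kept in every alternative run that tested them. The NS shRNA libraries are common to both comparisons.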

How the results depend on the processing

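Of 88 log2 fold changes of collagen genes and ASAH1, 63 kept their direction and their side of the threshold under every alternative run that tested them. A direction changed for 6 values, all uncalled. COL6A1 with shRNA #2 became -0.044 with upper quartile rescaling and -0.0022 with DESeq2, and ran from -0.024 to 0.037 with single libraries left out. COL8A2 with shRNA #2 became 0.0092 with edgeR and ran from -0.10 to 0.12. With single libraries left out COL24A1 ran from -0.19 to 0.19 with shRNA #1, COL2A1 from -0.16 to 0.62 with shRNA #2, and between the hairpins COL9A3 ran from -0.47 to 0.35 and COL7A1 from -0.14 to 0.0498. For 12 values a call was lost under at least one alternative and for 7 one was gained, and the cause was not tested. Without single libraries the collagen genes called higher with shRNA #2 numbered 4 to 8, and those called lower 9 to 11. With a mean of at least 50, which tests fewer genes, the machinery genes numbered 3 higher with shRNA #1 and 9 lower with shRNA #2 than with shRNA #1. With no filter 13 collagen genes were higher with shRNA #1, the added ones being COL11A1, COL19A1 and COL20A1, with few reads. The replicate numbers did not pair the libraries: the correlations of same-numbered deviations ran from -0.331 to 0.226. With the replicate block the counts of collagen genes were 10 higher and 14 lower with shRNA #1, 6 and 9 with shRNA #2, and 9 and 11 between the hairpins. The block ended the calls with shRNA #2 of COL5A1 (adjusted p = 0.0646, limma), COL4A4 (0.0594), COL16A1 (0.0843) and COL17A1 (0.124), and between the hairpins those of COL6A2 (0.0828, edgeR) and COL8A1 (0.0792). The call of COL6A2 was also lost with no filter and without any single hairpin library. That of COL8A1 was also lost with upper quartile normalization, and without NS shRNA replicate 2, any library of shRNA #1, or shRNA #2 replicate 1 or 2. Depth limits COL4A3, COL4A6, COL9A3 and the genes with fewer reads.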
